A study of Mus musculus with 17 samples.

Results

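Macrophages are the resident phagocytes of the dorsal root ganglion, which gathers the cell bodies of sensory neurons, and 40 genes that mark these cells or carry out their work are described here in ganglia after nerve injury or a sham procedure. The genes were taken as a list of symbols, from the pan-leukocyte phosphatase gene Ptprc to the oxidase genes Cybb and Ncf1, and were matched to the Ensembl identifiers of the deposited count tables. All 40 had counts and all 40 passed the filter on low counts, among 46200 genes with any count and 23972 genes tested. The list holds 4 regulators of leukocyte identity, 4 surface and adhesion genes, 5 lysosome and killing genes, the 3 chains of complement C1q, 6 resident and scavenger genes, 3 MS4A genes, 3 Fc receptor genes, 5 pattern recognition genes, 5 genes best known from microglia and 2 subunits of the phagocyte NADPH oxidase.

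The study sequenced bulk RNA from mouse lumbar ganglia (L4-L6) in 17 libraries, crossing a nerve injury with a genotype label. CCI WT (wild type after chronic constriction injury, in which loose ligatures are tied around the sciatic nerve) and Sham WT (wild type after the sham procedure) have 5 libraries each. CCI KO (label knockout of Twik1, the potassium channel encoded by Kcnk1, after constriction injury) has 3 libraries, numbered 2, 3 and 4, and Sham KO (the same label after the sham procedure) has 4. Every library carries the entry day 30 in a field called batch. The deleted stretch of Kcnk1, the strain, sex and age of the mice and any pooling of animals were not found in the labels, and neither was whether each library came from a separate animal. The p-values therefore measure only the spread between these libraries, which may be technical.

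Ganglion macrophages sit close to the neuron bodies and their satellite glia, and others enter from the blood. After a peripheral nerve is damaged, neurons make the growth factor CSF1, and macrophages in the ganglion are known to multiply and to change their gene expression, clearing debris and making complement. The transcription factor PU.1, encoded by Spi1, is a master regulator of the lineage, and IRF8 acts with it. In whole-tissue RNA, a change in the number of cells of a type and a change in the RNA per cell cannot be told apart.

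Library totals were 52.5 to 73.6 M gene counts (M, mega). Expression levels are counts per M after scaling each library (CPM). Markers of sensory neurons, 10 genes, summed to 13949 to 18688 CPM in every library, and the macrophage genes together to 163 to 513 CPM. Kcnk1 was at 78.3, 89 and 84.5 CPM in CCI KO and 77.9, 75.1, 91.8 and 114 CPM in Sham KO libraries, against 106 to 121 CPM in CCI WT and 94.3 to 139 CPM in Sham WT, so the transcript was still counted in the libraries labelled knockout. Of the axon injury genes 13 were tested and all 13 rose in CCI WT against Sham WT. Their list summed to 1464 to 2535 CPM in CCI WT and 498 to 746 CPM in Sham WT. It summed to 1337 to 2096 CPM in CCI KO and to 1577, 1307, 650 and 570 CPM in Sham KO libraries 1 to 4, so library 1 of Sham KO lay inside the injured range and library 2 just under it, both above every Sham WT library. The number in the names of the deposited tables is 1 for all sham libraries and differs for each CCI group, with no word on what it stands for. Should it be a batch, it cannot be told apart from the group for either injury comparison, for the genotype comparison after CCI or for the interaction, while Sham KO and Sham WT share 1 number.

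Sham KO library 4 stood apart. It was the highest of the 17 libraries for 20 of the 40 macrophage genes, against 7.55% of all tested genes. Relative to the median of Sham KO libraries 1 to 3 it was at least 2-fold higher for 22 members and at least 4-fold higher for 12, and lower for 6. The matching shares of all tested genes are not given, so these counts do not set the list apart from other genes. In the same library 12 neutrophil and monocyte markers summed to 1443 CPM, against 24.9 to 398 CPM in the other 16, and 13 lymphocyte markers to 27.4 CPM, against 3.9 to 9.03 CPM. Its 8 platelet and red cell markers summed to 1735 CPM, against 99.2 to 765 CPM elsewhere, and its 8 proliferation genes to 120 CPM, against 40.6 to 63.6 CPM. Calls and medians of the macrophage list that use Sham KO are therefore given with and without library 4, and also without libraries 1 and 2. Levels, markers of other cells, other gene lists and the covariate fit use every Sham KO library unless stated.

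Part of the macrophage list was higher after injury in wild type. The edgeR quasi-likelihood test called 6 of the 40 higher in CCI WT than in Sham WT at an adjusted p of 0.05 (Benjamini-Hochberg, over every gene tested), and none lower, against 2.34% of all tested genes called higher and 0.713% called lower. These were Ms4a7, the lysophosphatidylserine receptor gene Gpr34, Adgre1 (the F4/80 antigen), the ADP receptor gene P2ry12, the complement chain gene C1qc and the protease gene Ctss (cathepsin S). The log2 fold change was positive for 32 members and negative for 8, with a median of 0.47, against −0.0067 over all tested genes. An unadjusted p under 0.05 was reached by 16. The libraries of both groups did not overlap for 3 members (Ms4a7, Gpr34 and P2ry12), each higher in CCI WT, against 3.43% of all tested genes. Among markers of other ganglion cells, the 8 satellite glia markers summed to 4985 to 5282 CPM in CCI WT, against 4442 to 4873 CPM in Sham WT, without overlap, and edgeR called 2 of them higher and 0 lower. Most of that sum was Apoe, at 4073 to 4338 CPM in CCI WT, against 3730 to 4120 CPM in Sham WT, with overlap. Apoe is also on the list of other macrophage genes below. Mean levels of Fabp7, Cdh19 and Kcnj10 were higher in CCI WT, and those of Aldoc (205 against 238 CPM) and Slc1a3 (18.5 against 19.3 CPM) lower. The 8 Schwann cell markers summed to 11742 to 15941 CPM in CCI WT, against 10666 to 15132 CPM in Sham WT, with 1 called higher. The part of either in the macrophage differences was not tested.

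Single libraries moved the count of 6. Leaving out CCI WT library 5 gave 1, and the count was 2 without CCI WT library 4 or Sham WT library 2, and 3 without CCI WT library 1, CCI WT library 2, or Sham WT library 3, 4 or 5. It was 4 without CCI KO library 2 or 4, which share the estimate of the spread, and 4 without both Sham KO libraries 1 and 2. It was 5 without CCI KO library 3, or Sham KO library 1 or 2 alone. It rose to 7 without CCI WT library 3, 8 without Sham KO library 4 and 10 without Sham WT library 1. The number of all tested genes called higher moved as well, from 562 of 23972 with every library to 346 of 23739 without CCI WT library 5. It was 351 of 23766 without CCI WT library 4, 449 of 23735 without Sham WT library 2 and 473 of 23762 without Sham WT library 1. Without CCI WT library 3 it was 692 of 23774, and without Sham KO library 4 it was 665 of 23622. Over the 17 fits that left out a library, Ms4a7 was called in 17, Gpr34 in 16, P2ry12 in 12, Adgre1 in 11, C1qc in 7 and Ctss in 4. Their log2 fold changes stayed positive in each of these fits.

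**Figure D1:**
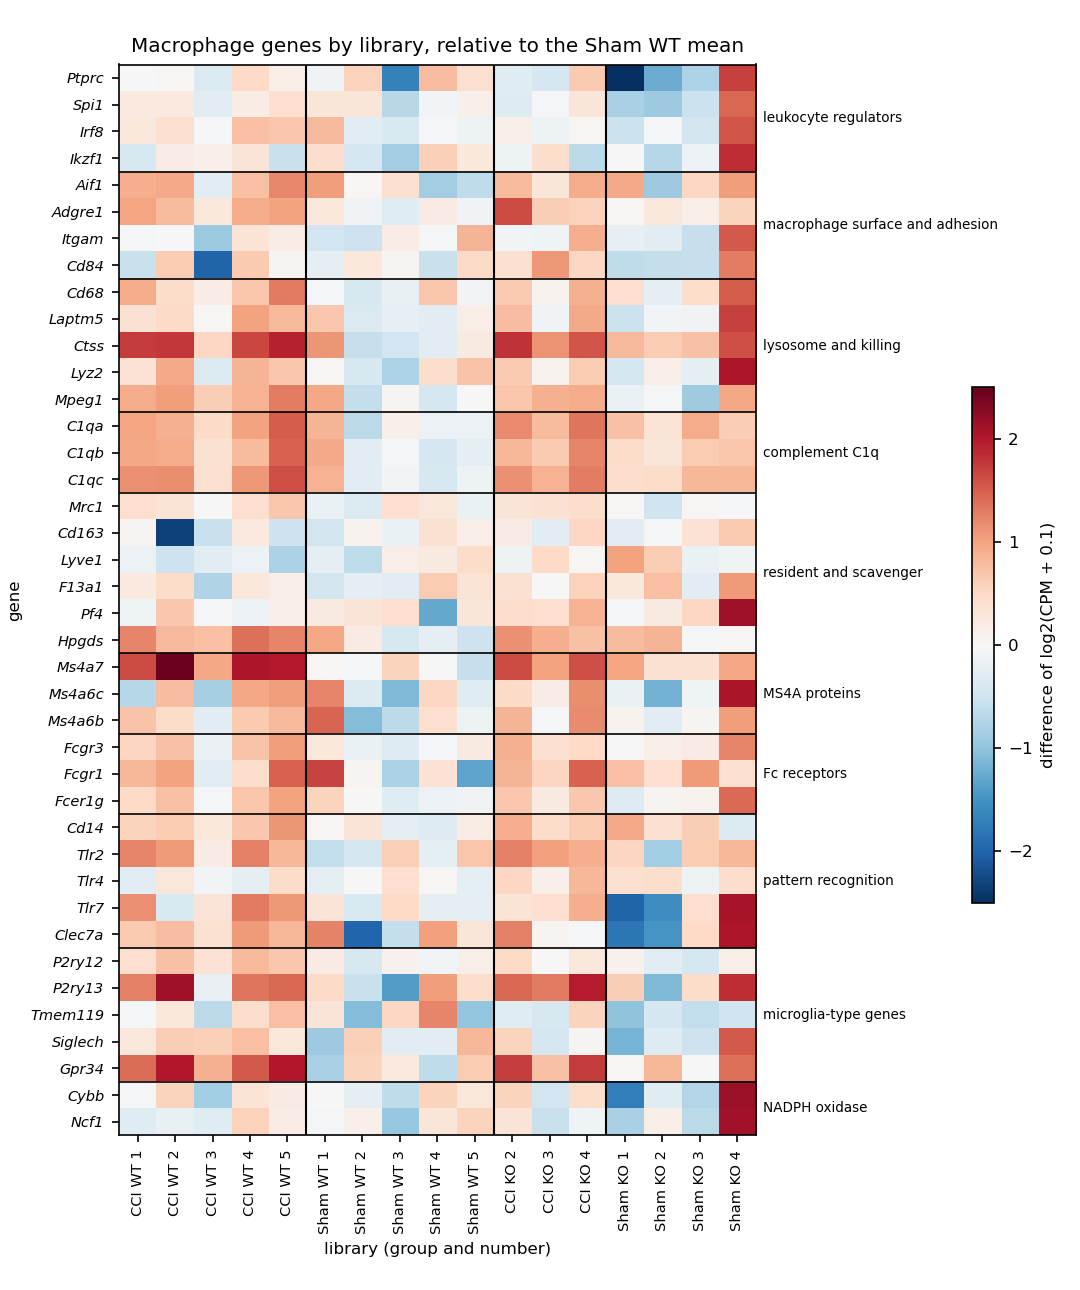
Level of each of the 40 macrophage genes (rows, by role) in each of the 17 libraries (columns, grouped as CCI WT, Sham WT, CCI KO and Sham KO), as the difference of log2(CPM + 0.1) from the Sham WT mean, with the colour scale limited to ±2.5. Sham KO library 4 is the highest library for 20 of the 40 rows, and the C1q and Ms4a7 rows are higher in most CCI libraries than in most Sham WT libraries.

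Promoter sequences are shown for 5 members, C1qb and C1qc as genes of 1 complex whose levels went together, Ctss and Ms4a7 as called genes of other roles, and Cybb as a member that was not called. They come from RefSeq on build GRCm38.p6, an older build than that of the counts, and run from 250 bases before the annotated start to 50 bases after it, 5′ to 3′ on the gene's strand. Capitals mark matches, on either strand, to the PU.1 core GAGGAA and to the composite of an ETS and an IRF site, GGAANNGAA, which can overlap the core. A core on the opposite strand reads TTCCTC. The windows are C1qb at chr4:136886151-136886450 (minus strand), C1qc at chr4:136892865-136893164 (minus strand), Ctss at chr3:95526536-95526835 (plus strand), Ms4a7 at chr19:11336097-11336396 (minus strand) and Cybb at chrX:9469275-9469574 (minus strand).
C1qb: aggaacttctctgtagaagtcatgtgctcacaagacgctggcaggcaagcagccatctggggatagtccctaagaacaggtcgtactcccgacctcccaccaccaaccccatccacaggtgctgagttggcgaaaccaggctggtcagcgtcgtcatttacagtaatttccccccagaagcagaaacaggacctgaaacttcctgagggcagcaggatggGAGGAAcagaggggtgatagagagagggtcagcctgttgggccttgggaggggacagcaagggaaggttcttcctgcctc
C1qc: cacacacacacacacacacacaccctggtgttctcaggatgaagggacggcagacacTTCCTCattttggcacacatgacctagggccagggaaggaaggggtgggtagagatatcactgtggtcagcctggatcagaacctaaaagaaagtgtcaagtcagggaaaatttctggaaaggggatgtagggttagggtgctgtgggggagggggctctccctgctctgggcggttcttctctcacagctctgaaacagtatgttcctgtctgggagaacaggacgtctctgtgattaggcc
Ctss: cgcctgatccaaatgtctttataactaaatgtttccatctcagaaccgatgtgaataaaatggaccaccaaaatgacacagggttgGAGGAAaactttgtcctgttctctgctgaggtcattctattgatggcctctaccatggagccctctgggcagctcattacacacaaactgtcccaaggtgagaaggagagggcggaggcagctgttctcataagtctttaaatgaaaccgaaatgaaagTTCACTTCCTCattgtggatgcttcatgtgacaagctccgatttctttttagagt
Ms4a7: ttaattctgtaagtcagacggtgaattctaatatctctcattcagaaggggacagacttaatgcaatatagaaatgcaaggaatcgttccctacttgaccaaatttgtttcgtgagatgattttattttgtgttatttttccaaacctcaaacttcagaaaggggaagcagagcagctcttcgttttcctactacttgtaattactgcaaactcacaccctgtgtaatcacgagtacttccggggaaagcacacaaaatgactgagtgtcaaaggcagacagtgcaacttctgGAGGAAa
Cybb: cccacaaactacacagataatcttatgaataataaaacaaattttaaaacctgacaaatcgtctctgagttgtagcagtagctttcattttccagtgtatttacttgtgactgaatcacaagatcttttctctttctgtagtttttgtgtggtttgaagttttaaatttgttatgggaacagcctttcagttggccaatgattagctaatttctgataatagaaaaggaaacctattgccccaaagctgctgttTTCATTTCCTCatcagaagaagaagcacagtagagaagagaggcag

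RefSeq entries were found for 31 of the 40 members, in 38 windows of 300 bases. The PU.1 core was in 23 of the 38 windows (60.5%), against 28.3% of 32851 promoter windows of the same length. The composite was in 6 of 38 (15.8%), against 8.24%. Some members have more than 1 window, and those of Clec7a and of Fcgr3 overlap almost fully, so that the same match is counted again. By member, the core was in at least 1 window for 20 of 31 and the composite for 5 of 31. The window of the other listed Ms4a7 start and that of P2ry12, another gene that rose after injury in wild type, held neither motif, while Cybb, which was not called, held both. A match is a run of letters and not a measured binding site, and its absence says only that these letters are not in the window.

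Among the regulators of leukocyte identity, 0 of 4 were called by edgeR in injury in wild type (unadjusted p under 0.05 for 0), and the median log2 fold change was 0.01. Irf8, a transcription factor of monocytes and macrophages, had 5.25, 5.81, 4.26, 7.45 and 7.02 CPM in CCI WT libraries 1 to 5, against 7.75, 3.63, 3.3, 4.22 and 3.99 CPM in Sham WT libraries 1 to 5. Its levels were 4.83, 3.99 and 4.42 CPM in CCI KO libraries 2 to 4, against 2.98, 4.28, 3.16 and 13.2 CPM in Sham KO libraries 1 to 4. Sham WT library 1 and Sham KO library 4 were high and the groups overlapped, with an injury difference in wild type of 0.38 ± 0.37 on the log2 scale (SE, edgeR adjusted p = 0.774). Spi1 had 4.77, 4.8, 3.34, 4.59 and 5.4 CPM in CCI WT, against 5.03, 5.03, 2.47, 3.86 and 4.42 CPM in Sham WT. Spi1 levels were 3.22, 3.91 and 5.03 CPM in CCI KO, against 2.27, 2.11, 2.76 and 11.1 CPM in Sham KO. The wild-type groups overlapped (0.14 ± 0.39, edgeR adjusted p = 0.949), while in Sham KO the range was set by library 4, the others lying at 2.11 to 2.76 CPM. Ikzf1, which encodes the lymphoid and myeloid factor Ikaros, had 1.13, 1.76, 1.67, 1.95 and 1.01 CPM in CCI WT, against 2.1, 1.12, 0.791, 2.36 and 1.85 CPM in Sham WT, and 1.4, 2.1 and 0.921 CPM in CCI KO, against 1.52, 0.9, 1.37 and 5.75 CPM in Sham KO. All groups overlapped. Ptprc, which encodes CD45 on all leukocytes and was singled out after its values were seen, had 4.28, 4.45, 3.32, 6.11 and 4.78 CPM in CCI WT, against 4.04, 6.46, 1.26, 7.41 and 5.68 CPM in Sham WT. Ptprc levels were 3.47, 3.19 and 6.79 CPM in CCI KO, against 0.525, 1.76, 2.46 and 14.3 CPM in Sham KO, a range in Sham KO from the lowest to the highest of all 17 libraries.

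The surface and adhesion genes held 1 called member of 4. Adgre1, the adhesion receptor behind the F4/80 antigen of mouse macrophages (ENSMUSG00000004730, chromosome 17, 57665573 to 57790527, plus strand in GRCm39), had 7.19, 6.32, 4.32, 6.97 and 7.38 CPM in CCI WT, against 4.35, 3.4, 2.89, 4.19 and 3.39 CPM in Sham WT. Its mean was 6.43 ± 1.25 CPM in CCI WT and 3.64 ± 0.61 CPM in Sham WT (SD, n = 5 each). It rose by 0.82 ± 0.20 on the log2 scale (SE, edgeR adjusted p = 0.0202), and the groups touched only where CCI WT library 3 lay just under Sham WT library 1. Adgre1 was at 11.3, 5.58 and 5.4 CPM in CCI KO, against 3.73, 4.43, 4.08 and 5.32 CPM in Sham KO, with no overlap. That difference was 0.76 ± 0.24 and not past the threshold (edgeR adjusted p = 0.296). Aif1, the gene of the actin-binding protein Iba1 used to stain macrophages and microglia, had 0.899, 0.925, 0.345, 0.797 and 1.13 CPM in CCI WT, against 1.01, 0.454, 0.606, 0.191 and 0.245 CPM in Sham WT. Aif1 levels were 0.821, 0.562 and 0.921 CPM in CCI KO, against 0.932, 0.184, 0.667 and 1.01 CPM in Sham KO. It overlapped in both pairs (0.72 ± 0.48 in wild type, edgeR adjusted p = 0.581), and 16.6% of its exon bases also belong to a gene on the opposite strand. Itgam, the CD11b chain of complement receptor CR3, had 1.16, 1.19, 0.576, 1.54 and 1.36 CPM in CCI WT, against 0.823, 0.803, 1.36, 1.15 and 2.22 CPM in Sham WT, and 1.12, 1.09 and 2.31 CPM in CCI KO, against 1.02, 0.973, 0.762 and 3.61 CPM in Sham KO. Its levels are uncertain, since 67.4% of its exon bases are shared with the overlapping gene Gm49368 on the same strand. The fourth gene, Cd84, a homophilic receptor of leukocytes, ranged over 0.23 to 1.96 CPM in CCI WT, against 0.792 to 1.73 CPM in Sham WT.

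**Figure D2:**
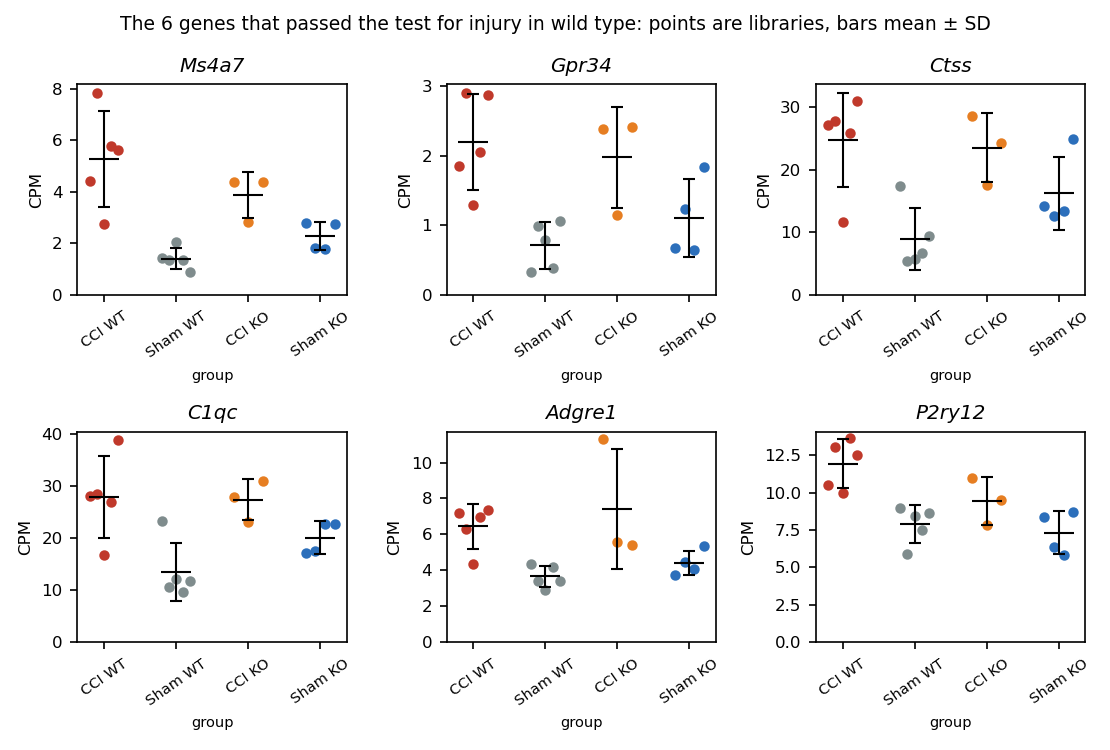
Levels of the 6 called genes, Ms4a7, Gpr34, Ctss, C1qc, Adgre1 and P2ry12, in CPM (each panel from 0), with a point per library and bars for the mean ± SD of CCI WT (n = 5), Sham WT (n = 5), CCI KO (n = 3) and Sham KO (n = 4). The points of CCI WT and Sham WT do not overlap for Ms4a7, Gpr34 and P2ry12; for Ctss and C1qc, Sham WT library 1 lies inside the CCI WT range.

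All 5 lysosome and killing genes had a positive injury difference in wild type, with a median log2 fold change of 0.73, and 1 was called. Ctss (ENSMUSG00000038642, chromosome 3, 95433963 to 95463717, plus strand), a lysosomal cysteine protease that can also act outside the cell, had 27.2, 27.7, 11.6, 25.9 and 30.9 CPM in CCI WT, against 17.4, 5.39, 5.75, 6.63 and 9.41 CPM in Sham WT. Its mean was 24.7 ± 7.51 CPM in CCI WT and 8.91 ± 4.99 CPM in Sham WT (SD, n = 5 each). CCI WT library 3 was low and Sham WT library 1 high, and the groups overlapped through these alone. Ctss rose by 1.47 ± 0.36 (edgeR adjusted p = 0.0423). Its call was lost with only CCI WT and Sham WT in the fit (edgeR adjusted p = 0.0852) and with no low-count filter (edgeR adjusted p = 0.0515). Without Sham KO libraries 1 and 2, which enter only through the shared spread, its edgeR adjusted p was 0.0588, and over the fits that left out a library it ran from 0.00654 to 0.117. Ctss was at 28.6, 17.6 and 24.3 CPM in CCI KO, against 14.1, 12.5, 13.4 and 24.9 CPM in Sham KO, where library 4 alone reached the CCI KO range. Mpeg1, the pore-forming protein perforin-2 of phagocytes, had 4.85, 5.22, 3.9, 4.63 and 6.23 CPM in CCI WT, against 4.96, 1.61, 2.61, 1.84 and 2.49 CPM in Sham WT. Mpeg1 levels were 4.11, 4.69 and 4.81 CPM in CCI KO, against 2.2, 2.42, 1.3 and 4.97 CPM in Sham KO. The overlap came from Sham WT library 1 and Sham KO library 4, and the injury difference in wild type was 0.88 ± 0.30 (edgeR adjusted p = 0.141), or 0.88 ± 0.25 and past the threshold without Sham KO library 4 (edgeR adjusted p = 0.0417). Cd68, a lysosomal membrane glycoprotein, had 7.02, 5.06, 4.16, 5.93 and 9.08 CPM in CCI WT, against 3.49, 2.74, 3.2, 5.96 and 3.44 CPM in Sham WT, and 5.78, 3.84 and 6.82 CPM in CCI KO, against 4.88, 3.03, 4.97 and 10.6 CPM in Sham KO. Sham WT library 4 was high and the groups overlapped (0.73 ± 0.30, edgeR adjusted p = 0.264). The lysozyme gene Lyz2 ranged over 27.8 to 69.2 CPM in CCI WT, against 20.9 to 58.5 CPM in Sham WT, and the lysosomal membrane gene Laptm5 over 11.1 to 22 CPM, against 8.48 to 17.5 CPM. Both overlapped.

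The 3 C1q genes lie side by side on chromosome 4 and encode the chains of the protein that starts the classical complement pathway. Their levels went together over the libraries: the sum of the 3 was 82.5, 80.4, 53.5, 77.3 and 116 CPM in CCI WT, against 74.8, 31, 39.9, 31.7 and 35.6 CPM in Sham WT. In CCI KO the sum was 82.4, 68.2 and 97.3 CPM, against 58.1, 51.8, 69.2 and 66.1 CPM in Sham KO. Sham WT library 1 stood above the other 4 Sham WT libraries and inside the CCI WT range, while its axon injury sum of 498 CPM was the lowest of all libraries. C1qc (ENSMUSG00000036896, chromosome 4, 136616466 to 136620376, minus strand) had 28.1, 28.4, 16.7, 26.9 and 38.8 CPM in CCI WT, against 23.2, 10.6, 12, 9.51 and 11.6 CPM in Sham WT. It rose by 1.06 ± 0.25 (edgeR adjusted p = 0.0346), with a mean of 27.8 ± 7.83 CPM in CCI WT and 13.4 ± 5.58 CPM in Sham WT. Its call was lost without Sham KO libraries 1 and 2 (edgeR adjusted p = 0.052) and with only CCI WT and Sham WT in the fit (edgeR adjusted p = 0.0932). C1qc was at 27.9, 23.1 and 30.9 CPM in CCI KO, against 17.1, 17.5, 22.7 and 22.7 CPM in Sham KO, without overlap but not past the threshold (0.45 ± 0.30, edgeR adjusted p = 0.752). C1qa had 22, 20.6, 15.4, 22.1 and 31.6 CPM in CCI WT, against 20, 6.86, 12, 9.95 and 9.93 CPM in Sham WT, and 25.2, 19.2 and 28.1 CPM in CCI KO, against 18.5, 14, 21.1 and 16.9 CPM in Sham KO. C1qb had 32.3, 31.3, 21.4, 28.3 and 45.6 CPM in CCI WT, against 31.6, 13.6, 15.9, 12.3 and 14.1 CPM in Sham WT, and 29.3, 25.9 and 38.3 CPM in CCI KO, against 22.6, 20.3, 25.4 and 26.5 CPM in Sham KO. Both overlapped and missed the threshold in wild type, C1qa at 0.93 ± 0.25 (edgeR adjusted p = 0.0684) and C1qb at 0.86 ± 0.26 (edgeR adjusted p = 0.103). Without Sham WT library 1, all 3 were called.

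Resident and scavenger genes gave 0 calls of 6 for injury in wild type by edgeR, with 2 at an unadjusted p under 0.05 and a median log2 fold change of 0.05. DESeq2 and limma-voom each called Hpgds. Hpgds, the prostaglandin D synthase of blood-derived cells, had 1.86, 1.38, 1.32, 2.09 and 1.86 CPM in CCI WT, against 1.54, 0.872, 0.538, 0.614 and 0.491 CPM in Sham WT. Hpgds levels were 1.77, 1.49 and 1.3 CPM in CCI KO, against 1.37, 1.43, 0.724 and 0.778 CPM in Sham KO. Sham WT library 1 made the wild-type groups overlap (1.07 ± 0.33, edgeR adjusted p = 0.0756). Mrc1, the mannose receptor CD206, had 8.54, 8.09, 6.35, 8.6 and 10.3 CPM in CCI WT, against 5.67, 4.96, 8.5, 7.74 and 5.64 CPM in Sham WT. Mrc1 levels were 8.03, 8.35 and 8.72 CPM in CCI KO, against 6.49, 4.5, 6.61 and 6.19 CPM in Sham KO, with no overlap there. The difference was 0.36 ± 0.16 in wild type (edgeR adjusted p = 0.289) and 0.49 ± 0.19 in the knockout-labelled libraries (edgeR adjusted p = 0.436). Lyve1, a hyaluronan receptor of perivascular macrophages and of lymphatic endothelium, had 4.01, 3.07, 3.65, 4.02 and 2.55 CPM in CCI WT, against 3.79, 2.84, 5.05, 5.24 and 6.18 CPM in Sham WT. Lyve1 levels were 4.09, 6.36 and 4.59 CPM in CCI KO, against 9.11, 6.98, 3.98 and 4.14 CPM in Sham KO. The groups overlapped, with a negative difference in wild type (−0.42 ± 0.23, edgeR adjusted p = 0.468). Cd163, the scavenger receptor for haemoglobin, had a log2 difference of −0.45 ± 0.34 in wild type (edgeR adjusted p = 0.669). F13a1, the coagulation factor XIII A chain, was at 0.07 ± 0.28 (edgeR adjusted p = 0.969) and the chemokine gene Pf4, which platelets also use, at 0.03 ± 0.39 (edgeR adjusted p = 0.992).

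Of the MS4A genes, which encode tetraspan membrane proteins, Ms4a7 had the smallest p of all 40 members. Ms4a7 (ENSMUSG00000024672, chromosome 19, 11298403 to 11313510, minus strand) had 4.42, 7.83, 2.74, 5.78 and 5.63 CPM in CCI WT, against 1.41, 1.33, 2.04, 1.34 and 0.883 CPM in Sham WT. Every CCI WT library was above every Sham WT library, with a mean of 5.28 ± 1.88 CPM in CCI WT and 1.4 ± 0.412 CPM in Sham WT (SD, n = 5 each). It rose by 1.92 ± 0.26 on the log2 scale (SE, edgeR adjusted p = 0.000118), and by 1.73 to 2.09 over the fits that left out a library. Ms4a7 was at 4.4, 2.84 and 4.37 CPM in CCI KO, against 2.78, 1.8, 1.79 and 2.75 CPM in Sham KO. These did not overlap, with a gap between Sham KO library 1 and CCI KO library 3 of less than 0.1 CPM, and the difference of 0.76 ± 0.30 missed the threshold (edgeR adjusted p = 0.445). Ms4a6b had 2.97, 2.48, 1.46, 2.83 and 3.16 CPM in CCI WT, against 5.03, 0.785, 1.08, 2.4 and 1.6 CPM in Sham WT, and 3.28, 1.7 and 4.11 CPM in CCI KO, against 1.88, 1.43, 1.87 and 3.73 CPM in Sham KO. Ms4a6c had 0.341, 1.13, 0.307, 1.32 and 1.4 CPM in CCI WT, against 1.59, 0.471, 0.236, 0.942 and 0.491 CPM in Sham WT, and 0.903, 0.725 and 1.53 CPM in CCI KO, against 0.542, 0.22, 0.571 and 2.9 CPM in Sham KO. Both overlapped widely, with differences in wild type of 0.25 ± 0.42 and 0.27 ± 0.64 (edgeR adjusted p = 0.902 and 0.936). Ms4a6c is uncertain, since 76.6% of its exon bases also belong to BE692007 on the opposite strand and the kit keeps no strand.

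Fc receptor genes, through which phagocytes bind antibody-coated targets, gave 0 calls of 3 by edgeR in wild type, with 1 at an unadjusted p under 0.05. DESeq2 and limma-voom also called none of the 3. Fcgr3, a low-affinity IgG receptor, had 9.96, 11.4, 6.06, 11.3 and 14.2 CPM in CCI WT, against 8.38, 6.07, 5.48, 6.7 and 7.97 CPM in Sham WT. Fcgr3 levels were 12.8, 9.06 and 9.67 CPM in CCI KO, against 6.88, 7.7, 7.92 and 16.1 CPM in Sham KO, where library 4 was high. CCI WT library 3 lay inside the Sham WT range and made the wild-type groups overlap (0.61 ± 0.24, edgeR adjusted p = 0.213), and without Sham KO library 4 the same difference passed (edgeR adjusted p = 0.0442). Fcer1g, the signalling chain that several Fc receptors share, had 8.96, 10.5, 6.2, 10.2 and 12.8 CPM in CCI WT, against 9.33, 6.3, 5.06, 5.65 and 5.91 CPM in Sham WT, and 10.1, 7.37 and 10.1 CPM in CCI KO, against 5.01, 6.65, 6.67 and 16.9 CPM in Sham KO. Fcgr1, the high-affinity IgG receptor, had 1.29, 1.47, 0.537, 0.963 and 2.06 CPM in CCI WT, against 2.4, 0.715, 0.353, 0.901 and 0.213 CPM in Sham WT, and 1.31, 1.03 and 2.08 CPM in CCI KO, against 1.22, 0.937, 1.54 and 0.927 CPM in Sham KO. Both overlapped, at 0.59 ± 0.29 and 0.47 ± 0.48 in wild type (edgeR adjusted p = 0.391 and 0.787).

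All 5 pattern recognition genes had a positive injury difference in wild type (median log2 fold change 0.68), but edgeR called 0, with 2 at an unadjusted p under 0.05, and DESeq2 and limma-voom called 0 as well. Cd14, the co-receptor for bacterial lipopolysaccharide, had 3.55, 3.75, 2.9, 3.82 and 5.23 CPM in CCI WT, against 2.45, 2.98, 2.02, 1.88 and 2.7 CPM in Sham WT. Cd14 levels were 4.55, 3.3 and 3.76 CPM in CCI KO, against 4.68, 3.18, 3.71 and 1.84 CPM in Sham KO. The wild-type groups met where CCI WT library 3 lay just under Sham WT library 2 (0.68 ± 0.23, edgeR adjusted p = 0.114), and Sham KO library 4 was the lowest of all 17 libraries. Tlr2, a receptor for bacterial lipoproteins, had 3.76, 3.38, 1.82, 3.87 and 2.84 CPM in CCI WT, against 0.987, 1.13, 2.42, 1.3 and 2.6 CPM in Sham WT. Tlr2 levels were 3.88, 3.3 and 3.02 CPM in CCI KO, against 2.32, 0.826, 2.48 and 2.86 CPM in Sham KO. The KO groups did not overlap and the wild-type groups did (0.89 ± 0.31 in wild type, edgeR adjusted p = 0.137; 0.68 ± 0.37 in knockout-labelled, edgeR adjusted p = 0.637). Tlr7, an endosomal receptor for single-stranded RNA, had 0.79, 0.209, 0.403, 0.889 and 0.751 CPM in CCI WT, against 0.402, 0.209, 0.471, 0.246 and 0.245 CPM in Sham WT, and 0.411, 0.435 and 0.652 CPM in CCI KO, against 0, 0.0367, 0.438 and 1.57 CPM in Sham KO. These low values overlapped throughout. Tlr4, the lipopolysaccharide receptor, differed by 0.05 ± 0.22 in wild type (edgeR adjusted p = 0.97) and the beta-glucan receptor gene Clec7a by 0.39 ± 0.75 (edgeR adjusted p = 0.916).

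Genes best known from microglia, the macrophages of brain and spinal cord, held 2 calls of 5. Gpr34 (ENSMUSG00000040229, chromosome X, 13489625 to 13507116, plus strand) had 1.86, 2.9, 1.29, 2.06 and 2.88 CPM in CCI WT, against 0.329, 0.995, 0.791, 0.382 and 1.06 CPM in Sham WT. Every CCI WT library was above every Sham WT library, with a mean of 2.2 ± 0.693 CPM in CCI WT and 0.712 ± 0.341 CPM in Sham WT (SD, n = 5 each), a rise of 1.62 ± 0.37 (edgeR adjusted p = 0.0134). Gpr34 was at 2.38, 1.14 and 2.42 CPM in CCI KO, against 0.678, 1.23, 0.648 and 1.84 CPM in Sham KO, which overlapped (0.85 ± 0.44, edgeR adjusted p = 0.605). P2ry12 (ENSMUSG00000036353, chromosome 3, 59123682 to 59170429, minus strand), through which microglia sense ADP, had 10.5, 13.1, 10, 13.7 and 12.5 CPM in CCI WT, against 9, 5.86, 8.43, 7.48 and 8.67 CPM in Sham WT. It rose by 0.60 ± 0.15 (edgeR adjusted p = 0.021) without overlap, the smallest change among the 6 called genes. P2ry12 was at 11, 7.81 and 9.51 CPM in CCI KO, against 8.38, 6.35, 5.83 and 8.74 CPM in Sham KO, which overlapped, and 9.17% of its exon bases also belong to Med12l on the opposite strand. P2ry13, another receptor for ADP, had 1.18, 2.22, 0.365, 1.24 and 1.33 CPM in CCI WT, against 0.64, 0.262, 0.101, 0.996 and 0.622 CPM in Sham WT, and 1.33, 1.2 and 1.98 CPM in CCI KO, against 0.711, 0.147, 0.629 and 1.82 CPM in Sham KO. It overlapped in both pairs (1.26 ± 0.58 in wild type, edgeR adjusted p = 0.323). Tmem119, a membrane protein used to tell microglia from other macrophages, spread over 3.24 to 8.86 CPM in CCI WT and 2.39 to 12.3 CPM in Sham WT. Siglech, a receptor of the Siglec family, spread over 1.01 to 1.43 CPM in CCI WT and 0.384 to 1.52 CPM in Sham WT.

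The oxidase genes were not called. Cybb, the catalytic subunit of the phagocyte NADPH oxidase, had 7.3, 11, 4.11, 9.52 and 8.62 CPM in CCI WT, against 7.55, 6.42, 4.79, 11.1 and 9.13 CPM in Sham WT. Cybb levels were 11, 5.33 and 10.2 CPM in CCI KO, against 2.2, 6.02, 4.48 and 33.2 CPM in Sham KO. The wild-type groups covered almost the same range (0.05 ± 0.59, edgeR adjusted p = 0.989), and Sham KO held both the lowest and the highest library of all 17. Ncf1, a cytosolic subunit that organises the active enzyme, had 3.01, 3.24, 2.99, 5.59 and 4.25 CPM in CCI WT, against 3.62, 4.05, 1.88, 4.61 and 5.51 CPM in Sham WT, and 4.68, 2.5 and 3.43 CPM in CCI KO, against 2.08, 4.15, 2.3 and 16.2 CPM in Sham KO. It overlapped in both pairs (−0.05 ± 0.50 in wild type, edgeR adjusted p = 0.989).

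Levels can be ordered between genes only per length. Per kb of annotated exon, the Sham WT mean was highest for Lyz2 at 11.5 ± 4.62 CPM per kb (SD, n = 5), then C1qa at 7.3 ± 3.09, Fcer1g at 5.56 ± 1.44, C1qc at 4.68 ± 1.95, C1qb at 2.8 ± 1.28 and Cd68 at 2.75 ± 0.923 CPM per kb. Each of these differed from the next in this order by less than its own SD. In CCI WT the order began with Lyz2 at 15.9 ± 4.95, C1qa at 13.9 ± 3.63, C1qc at 9.71 ± 2.74 and Fcer1g at 8.39 ± 2.07 CPM per kb. P2ry12 stood at 3.73 ± 0.501 CPM per kb in CCI WT and 2.46 ± 0.395 in Sham WT, and Ms4a7, with the largest called fold change, at 1.19 ± 0.421 in CCI WT and 0.314 ± 0.0926 in Sham WT. The lowest in Sham WT was Tlr7 at 0.0594 ± 0.0217 CPM per kb.

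**Figure D3:**
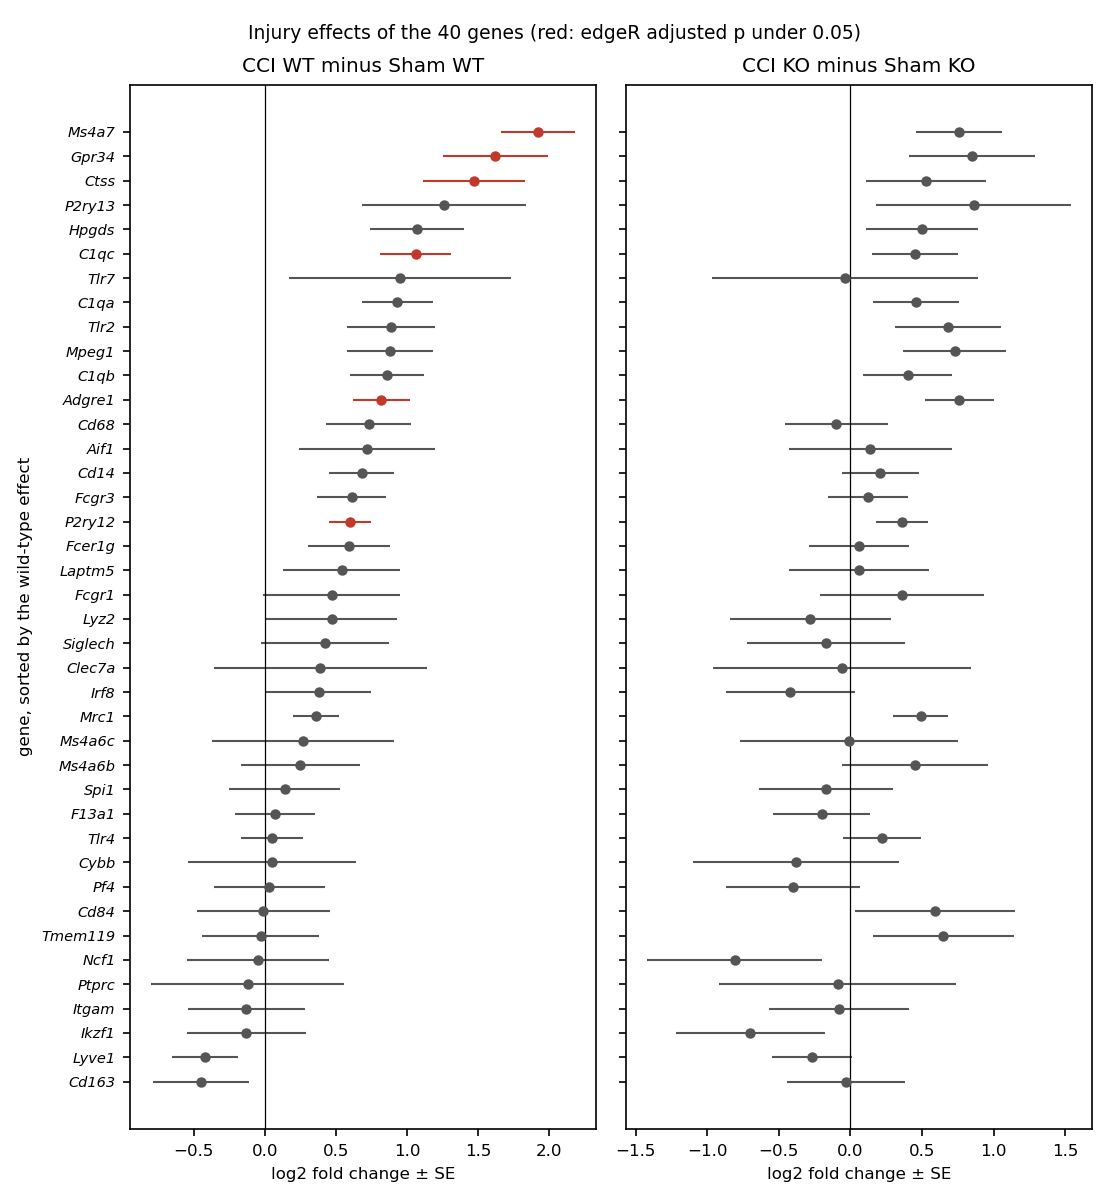
Log2 fold change ± SE of the 40 macrophage genes for CCI WT minus Sham WT (left) and CCI KO minus Sham KO (right), ordered by the wild-type difference, with members at an edgeR adjusted p under 0.05 in red. In wild type 6 members are red and 32 lie above 0; in the knockout-labelled libraries none is red and 23 lie above 0.

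Injury in the knockout-labelled libraries gave 0 calls of 40 by edgeR, by DESeq2 and by limma-voom, among the members for which each gave an adjusted p, with 3 at an unadjusted p under 0.05 by edgeR (Adgre1, Mrc1 and Ms4a7), against 0.0834% of all tested genes called by edgeR. The log2 fold change was positive for 23 of 40, with a median of 0.13, against −0.0055 over all tested genes; by limma-voom with quality weights, which weights down libraries that stand apart, the median was 0.54. Libraries of CCI KO lay above all of Sham KO for 6 members (Adgre1, C1qc, Mrc1, Ms4a7, Tlr2 and Tmem119), against 4.41% of all tested genes. Without Sham KO library 4, edgeR still called 0 of 40, against 0.169% of all genes tested in that fit, while 39 of 40 differences were positive, their median was 0.61 and 15 had an unadjusted p under 0.05. There Mpeg1 differed by 1.20 ± 0.32 (edgeR adjusted p = 0.135), Adgre1 by 0.86 ± 0.25 (edgeR adjusted p = 0.178), Spi1 by 0.77 ± 0.26 (edgeR adjusted p = 0.244) and Ptprc by 1.51 ± 0.59 (edgeR adjusted p = 0.367). With all libraries Spi1 was at −0.17 ± 0.47 and Ptprc at −0.09 ± 0.83, so that the sign of both turned on that library. Without Sham KO libraries 1 and 2, the median was −0.03, 20 of 40 differences were positive, and edgeR called 0, against 0.578% of all genes tested in that fit.

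The sham groups set the genotype labels side by side after the sham procedure. Sham KO libraries 1 and 2 had axon injury sums of 1577 and 1307 CPM, against 498 to 746 CPM in Sham WT. This contrast is therefore not one of plainly uninjured ganglia. In Sham KO against Sham WT 36 of 40 members had a positive difference, with a median of 0.44, against 0.0029 over all tested genes. However, 0 were called by edgeR, DESeq2 or limma-voom, and the limma-voom median was 0.06. By edgeR 1.0% of all tested genes were called, 5 members had an unadjusted p under 0.05 (Ctss, C1qa, C1qc, Pf4 and Ms4a7), and 0 members lay without overlap above Sham WT, against 1.13% of all tested genes. Ctss differed by 0.87 ± 0.37 (edgeR adjusted p = 0.385), Ms4a7 by 0.71 ± 0.27 (edgeR adjusted p = 0.266) and C1qc by 0.58 ± 0.26 (edgeR adjusted p = 0.417). Without Sham WT library 1, C1qc passed the threshold at 0.88 (edgeR adjusted p = 0.0487).

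Markers of other cells differed with the genotype label as well. The 8 Schwann cell markers, genes of myelin and myelinating glia, summed to 5229 to 7045 CPM in Sham KO, against 10666 to 15132 CPM in Sham WT, and to 6654 to 8186 CPM in CCI KO, against 11742 to 15941 CPM in CCI WT, without overlap in either pair. By edgeR 6 of the 8 fell in Sham KO and 5 of the 8 fell in CCI KO, each against the wild type of the same procedure, with median log2 differences of −0.75 and −0.57. The fall in Sham KO was called for 7 without Sham KO library 4 and for 1 without Sham KO libraries 1 and 2. The satellite glia markers summed to 3586 to 4336 CPM in Sham KO, against 4442 to 4873 CPM in Sham WT, with 1 of 8 called lower. After injury they summed to 4399 to 4762 CPM in CCI KO, against 4985 to 5282 CPM in CCI WT, and neither pair overlapped. Most of each sum was Apoe, at 2934 to 3517 CPM in Sham KO, against 3730 to 4120 CPM in Sham WT. The 6 fibroblast markers summed to 676 to 1177 CPM in Sham KO, against 862 to 1611 CPM in Sham WT, and 1 of them was called lower. That gene, the collagen gene Col3a1, was singled out after its values were seen and stood at 42.3 to 58.6 CPM in Sham KO, against 117 to 297 CPM in Sham WT. Col1a1 was at 368 CPM in Sham KO library 4, against at most 58.4 CPM in libraries 1 to 3. After injury the fibroblast markers summed to 832 to 917 CPM in CCI KO, against 1114 to 2163 CPM in CCI WT, without overlap. There Col1a1 (53.8 to 62.4 against 141 to 297 CPM), Col1a2 and Col3a1 did not overlap, while Dcn, Lum and Pdgfra did. The part of these markers in the macrophage differences was not tested.

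Without Sham KO library 4, the genotype difference in sham was positive for 19 of 40 members, with a median of −0.08. Of all genes tested in that fit 2.82% were called, and 0 of the members. The identity genes Ptprc and Spi1 and the oxidase gene Cybb then had negative differences, Ptprc at −1.66 ± 0.55 (edgeR adjusted p = 0.151), Spi1 at −0.80 ± 0.24 (edgeR adjusted p = 0.0669) and Cybb at −0.89 ± 0.39 (edgeR adjusted p = 0.303), none past the threshold. Other members stayed on the positive side, C1qc at 0.51 ± 0.29 (edgeR adjusted p = 0.482), Ms4a7 at 0.60 ± 0.29 (edgeR adjusted p = 0.345) and Cd14 at 0.68 ± 0.23 (edgeR adjusted p = 0.11). Without Sham KO libraries 1 and 2, where library 4 is 1 of the 2 libraries left, the median was 0.76, 35 of 40 were positive, and 0 members were called, against 0.146% of all genes tested.

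**Figure D4:**
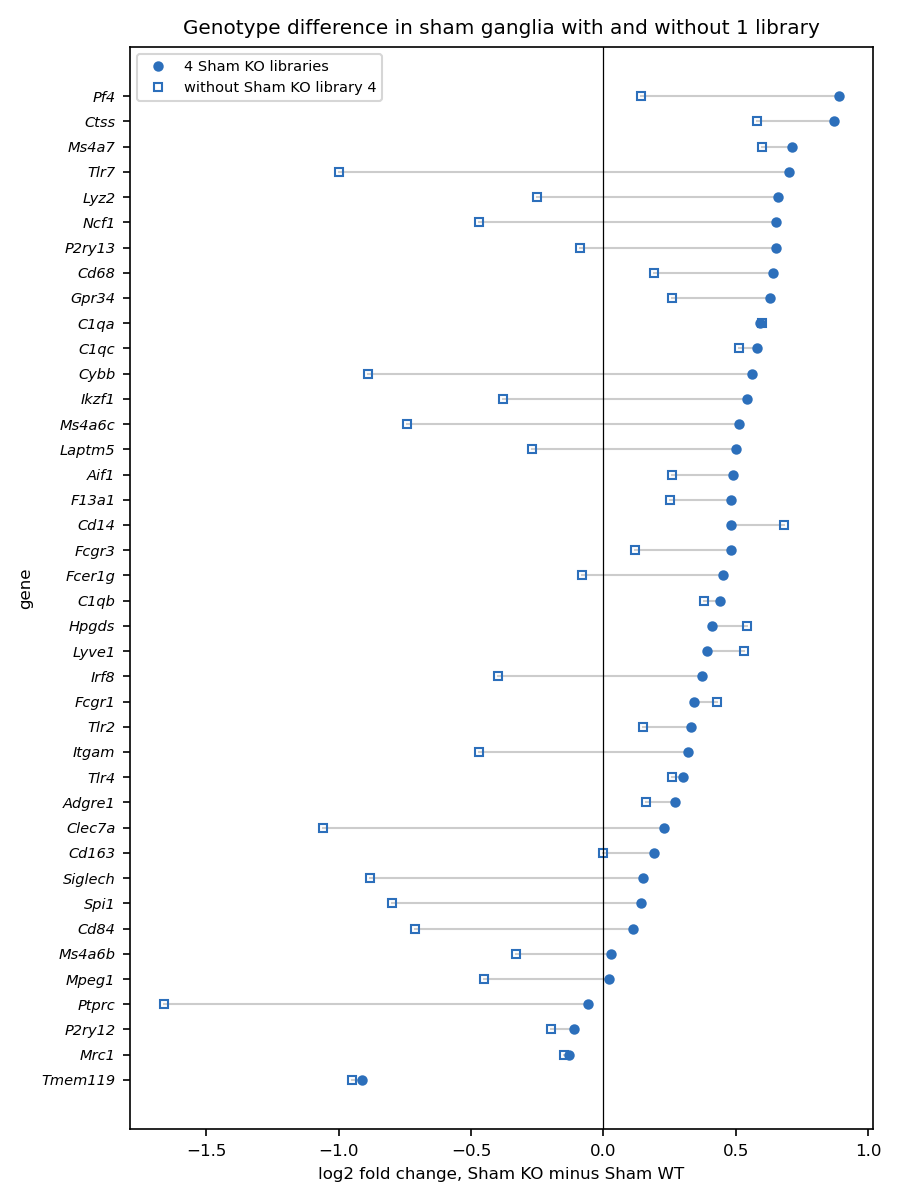
Log2 fold change of the 40 macrophage genes for Sham KO minus Sham WT, with all 4 Sham KO libraries (filled) and without Sham KO library 4 (open), ordered by the difference with all 4 libraries. With library 4, 36 of the 40 lie above 0; without it, 19 do, and Ptprc, Spi1 and Cybb lie below 0.

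The genotype comparison after injury gave 0 calls of 40 in CCI KO against CCI WT by edgeR, DESeq2 and limma-voom, with 0 members at an unadjusted p under 0.05 by edgeR, against 0.684% of all tested genes called. The median was −0.03, against −0.0071 over all tested genes, and 17 of 40 differences were positive. Lyve1 alone did not overlap, at 4.09 to 6.36 CPM in CCI KO, against 2.55 to 4.02 CPM in CCI WT, against 4.15% of all tested genes higher without overlap. Its difference was 0.54 ± 0.27 (edgeR adjusted p = 0.587). Ms4a7 differed by −0.45 ± 0.29 (edgeR adjusted p = 0.762) and P2ry12 by −0.34 ± 0.17 (edgeR adjusted p = 0.588), both overlapping.

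The interaction, which asks whether the injury difference itself differs by genotype label, gave 0 calls of 40 by edgeR, DESeq2 and limma-voom, against 0% of all tested genes by edgeR. Its median over the members was −0.44, against −0.012 over all tested genes, with 9 of 40 positive. Ms4a7, at −1.15 ± 0.40 (edgeR adjusted p = 0.696), was the 1 member whose p lay under 0.05 before adjustment. Without Sham KO library 4 the median was 0.16, with 23 of 40 positive, and Ms4a7 was at −1.05 ± 0.41 (edgeR adjusted p = 0.494). Without Sham KO libraries 1 and 2 the median was −0.80, with 6 of 40 positive. A difference in response to injury between the labels was thus not shown for any member, and the sign of the list's median depended on which sham libraries were kept. By limma-voom the median was −0.02.

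Neutrophil and monocyte markers varied between libraries alongside part of the list. The 12 neutrophil and monocyte markers, none at 0 in every library, summed to 72.5 to 310 CPM in CCI WT, against 58.3 to 398 CPM in Sham WT, and to 139 to 325 CPM in CCI KO, against 24.9, 197, 37.5 and 1443 CPM in Sham KO libraries 1 to 4. Of these markers 0 of 12 were called by edgeR in any of the 5 comparisons, with 0 at an unadjusted p under 0.05. Their median log2 fold change was −0.39 for injury in wild type and 0.59 for genotype in sham, where 12 of 12 were positive. Ngp, a granule protein gene of neutrophils, stood at 522 CPM in Sham KO library 4 and at 7.52 CPM in library 1, where Ptprc was lowest. Cybb, Ptprc and Lyz2 were each highest in that library 4 and Cybb and Ptprc lowest in library 1, whereas Mrc1, C1qa, Fcgr1, Lyve1, Hpgds and Cd14 were lower in library 4 than the median of Sham KO libraries 1 to 3. The median marker sum was 139 CPM in CCI WT, against 236 CPM in Sham WT, with overlap. Not every marker followed the sum: Ly6g was at 1.34 to 2.81 CPM in CCI WT, against 0.274 to 1.56 CPM in Sham WT. The part of neutrophils and monocytes in the macrophage differences was not tested, and neither was their source.

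**Figure D5:**
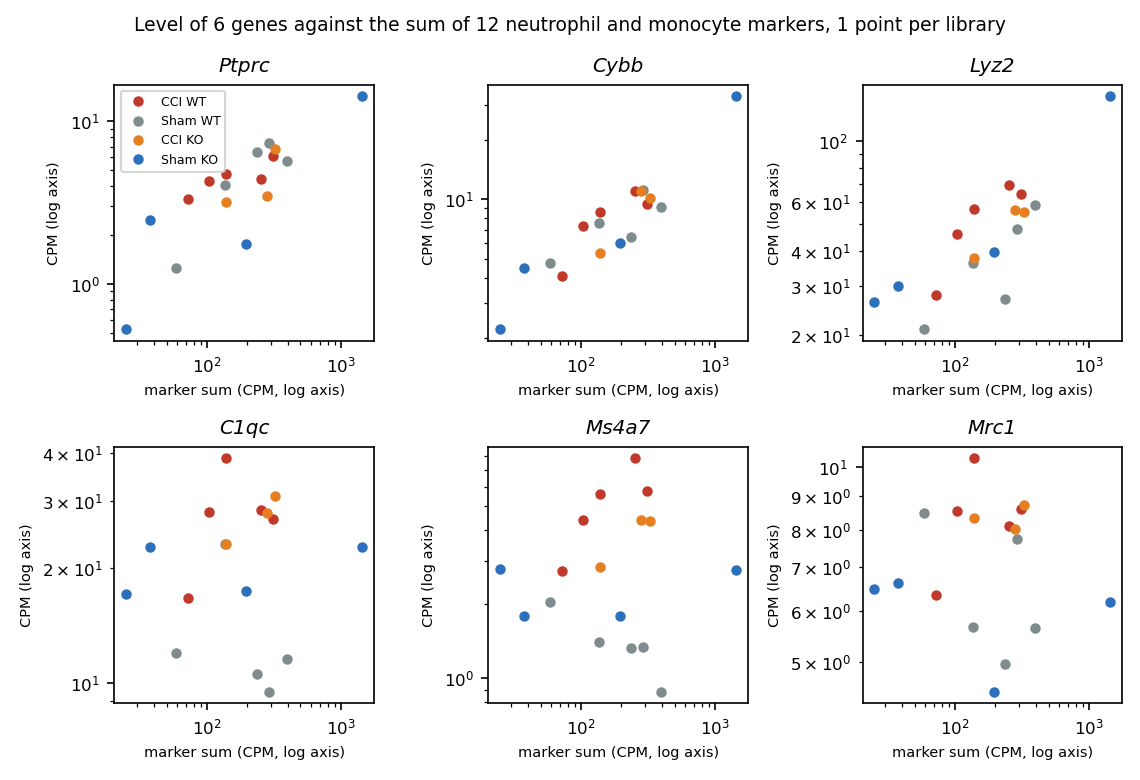
Levels of Ptprc, Cybb, Lyz2, C1qc, Ms4a7 and Mrc1 (CPM, log axis) against the sum of 12 neutrophil and monocyte markers (CPM, log axis) in each of the 17 libraries, marked by group. Sham KO library 4 lies at 1443 CPM on the marker axis and holds the highest Ptprc, Cybb and Lyz2, while its C1qc, Ms4a7 and Mrc1 lie within the range of the other libraries.

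With the marker sum as a covariate, chosen after seeing the data, edgeR called 7 of 40 for injury in wild type, the same 6 and Fcgr3, and the median was 0.59. Of all 23972 tested genes 654 were called higher in that fit, against 562 without the covariate. Ms4a7 was then at 1.91 ± 0.26, Gpr34 at 1.68 ± 0.33, Ctss at 1.49 ± 0.34 and C1qc at 1.06 ± 0.26. Each of the 6 lay within 0.1 on the log2 scale of its value without the covariate. The part of neutrophils and monocytes was not tested by this fit. In the other comparisons edgeR called 0 of 40 with the covariate. Ptprc moved to −0.35 ± 0.36 and Spi1 to 0.03 ± 0.24 for genotype in sham, both not past the threshold (edgeR adjusted p = 0.817 and 0.982).

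Other macrophage genes, a list of 49 chosen alongside the members, held 47 tested genes, of which 7 rose in CCI WT against Sham WT and 0 fell, with a median of 0.23. Of these 7, the 6 of smallest p were Lgals3 (2.0 ± 0.23), which encodes galectin-3 and is also expressed by some sensory neurons, the lipid receptor gene Trem2 (1.83 ± 0.32), the fractalkine receptor gene Cx3cr1 (1.17 ± 0.25), the CSF1 receptor gene Csf1r (0.91 ± 0.19), the metal transporter gene Slc11a1 (1.06 ± 0.27) and the inhibitory Fc receptor gene Fcgr2b (0.73 ± 0.19), each as a log2 fold change by edgeR. Csf1r, which macrophages need to survive, had 27.3, 29, 13.5, 26.1 and 28.6 CPM in CCI WT, against 18.4, 12.6, 12.2, 12 and 11 CPM in Sham WT. Csf1r levels were 26.8, 21.9 and 21.8 CPM in CCI KO, against 11.9, 10.8, 15.1 and 16.1 CPM in Sham KO. Like C1qc, it overlapped in wild type through CCI WT library 3 and Sham WT library 1, and every CCI KO library lay above every Sham KO library. In the knockout-labelled injury comparison 0 of 47 were called by edgeR, with 7 at an unadjusted p under 0.05.

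Ligands and recruitment genes held 15 tested of 17, of which 3 rose in CCI WT and 0 fell (median 0.21). Csf1, the growth factor, had 45.5, 55.8, 31.6, 56.5 and 52.5 CPM in CCI WT, against 31.9, 14.7, 15.8, 14.1 and 15.3 CPM in Sham WT. Csf1 levels were 52.3, 31.5 and 46.5 CPM in CCI KO, against 39.9, 32.5, 12.7 and 19 CPM in Sham KO. Sham WT library 1 was high here too, and Sham KO libraries 1 and 2 lay at the level of the injured libraries. It rose in wild type by 1.40 ± 0.33 (edgeR adjusted p = 0.0342). Il34, the other ligand of the CSF1 receptor, had 41.4, 39.2, 35.2, 41.3 and 38.4 CPM in CCI WT, against 30.6, 30.9, 28.4, 33.7 and 31.7 CPM in Sham WT, without overlap (0.33 ± 0.07, edgeR adjusted p = 0.00607). Ccl2, the monocyte attractant, stood at 15 and 13.2 CPM in Sham KO libraries 1 and 2, against at most 7.17 CPM in the other 15 libraries. For injury in wild type, edgeR called 0 of 13 lymphocyte markers (1 at an unadjusted p under 0.05), 0 of 10 mast and dendritic cell markers (4) and 0 of 8 proliferation genes (0). Of the proliferation genes 7 of 8 had a positive difference, with a median of 0.54. Sham KO library 4 entered the shared estimate of the spread. Its Top2a was 16.4 CPM, against at most 1.78 CPM in Sham KO libraries 1 to 3. So 0 calls in these lists do not show that the genes stayed level. Cdk1 did not overlap in wild type, at 2.42 to 4.09 CPM in CCI WT, against 0.959 to 2.27 CPM in Sham WT. Mki67, Top2a, Ccna2, Ccnb1, Birc5 and Mcm5 overlapped. Among mast and dendritic cell markers Cpa3 and Fcer1a did not overlap, while Tpsb2, Mcpt4, Cma1 and Xcr1 did.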

How the data were processed

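Per the labels' protocols, a PicoPure kit gave the RNA and SMART-Seq v4 the libraries, a chemistry that does not record strand. The deposited files hold raw counts for Ensembl genes, which the authors made after bcl2fastq 2.20.0.422 and alignment with STAR 2.7.11a to GRCm39, per the submitters' processing notes. Which counter, strand setting and annotation release were used is not given in the sources used here. Summary lines at the end of each table stayed out of totals and tests (reads outside genes 4.03 to 4.55%, ambiguous reads 7.63 to 8.17%). GENCODE M39 gave symbols and coordinates for 78168 of 78298 identifiers, and the other 130 held at most 0.0147% of a library. Without strand, reads of a gene and of one overlapping it on the other strand cannot be told apart.

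The counts were tested with edgeR 4.0.16 (limma 3.58.1, R 4.3.3) after filterByExpr by group (minimum count 10, minimum total 15) and TMM scaling (factors 0.983 to 1.03), with a mean per group over all 17 libraries, 13 residual degrees of freedom, robust quasi-likelihood F tests and Benjamini-Hochberg adjustment over 23972 genes at 0.05 with no minimum fold. The biological coefficient of variation was 0.346. All p-values are two-sided. SE given with edgeR are the absolute log2 fold change divided by the square root of its F statistic, and so are approximate. The scripts were tested on simulated data. Alternatives were DESeq2 1.42.0 (size factors within edgeR, and its own test), limma-voom with quality weights, no filter, a filter that asks 1 CPM or more in 5 libraries, the replicate number as a block, the groups compared alone, and fits without single libraries or without Sham KO libraries 1 and 2. A sum of neutrophil and monocyte markers as a covariate was added after seeing the data. Values in every library are printed for up to 3 members of each role with the smallest p for injury in wild type. The members, roles and gene lists were chosen with earlier results of these data known. Sequences of proteins were not used here. The value of 1 gene among the ligands and recruitment genes is not reported here.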

Additional observations from a re-analysis of the deposited data

Results flagged for a closer look

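In 120 pairs of a member and a group of 4 or 5 libraries, the highest or lowest library was compared with the others, and 25 pairs held a library whose gap to its nearest neighbour took up an unusually large part of the group's range. A chance rate of about 1 in 20 groups holds at best for independent values. Genes of the same library vary together here, so the 25 pairs cannot be weighed against that rate. Of the 25, 16 were Sham KO library 4 as the highest of its group. Among identity and surface genes these were Ptprc at 14.3 CPM, Spi1 at 11.1 CPM, Irf8 at 13.2 CPM, Ikzf1 at 5.75 CPM, Itgam at 3.61 CPM and Cd84 at 3.1 CPM. Among effector genes they were Laptm5 at 35.8 CPM, Ctss at 24.9 CPM, Lyz2 at 145 CPM, Cybb at 33.2 CPM and Ncf1 at 16.2 CPM. The others in that library were Pf4 at 13.3 CPM, Ms4a6c at 2.9 CPM, Fcgr3 at 16.1 CPM, Fcer1g at 16.9 CPM and Siglech at 2.52 CPM. Of the C1q genes, Mrc1, Lyve1 and Ms4a7, none stood apart in Sham KO.

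Sham WT library 1 stood above the other Sham WT libraries for 4 members, Irf8 at 7.75 CPM, C1qb at 31.6 CPM, C1qc at 23.2 CPM and Fcer1g at 9.33 CPM. Sham WT library 4 was high for Cd68 at 5.96 CPM and low for Pf4 at 1.17 CPM. In CCI WT, library 3 was low for Ctss at 11.6 CPM and library 2 was high for Pf4 at 4.82 CPM. Sham KO library 3 was low for Tlr4 at 2.02 CPM.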

How the results depend on the processing

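Of 1038 values for single members in wild-type injury under other settings, 941 kept their direction and their side of the threshold, 41 lost a call, 21 gained one and 35 turned their sign, the last in 10 members that were not called in any of these fits; the cause was not tested. Ms4a7 was called under every setting. The count of 6 called members was 10 with limma-voom, 9 with DESeq2 or with no low-count filter, which dropped Ctss, 4 with only the groups compared, which dropped Ctss and C1qc, and from 1 to 10 when each library was left out. Over all tested genes, 562 of 23972 were called higher in the main fit, 832 with limma-voom and 754 with DESeq2. There were 850 of 46200 with no low-count filter and 697 of 20269 with only the groups compared. The count of called members was 0 in the other 4 comparisons under every setting, except genotype in sham, where leaving out each library gave 0 to 1. The sign turned in Ptprc at 0.03 with limma-voom, and at 0.21 with the marker covariate. Ncf1 turned to 0.16 with the covariate and Tmem119 to 0.28 with limma-voom. Replicate numbers recur across groups, but deviations of same-numbered libraries correlated at −0.068 to 0.348, not all above 0.1, so the numbers were not taken to pair libraries. With the replicate number as a block, 6 members were called for injury in wild type, with Hpgds in and C1qc out, Pf4 turned to −0.02 and Tmem119 to 0.06, and no other call changed. With each library left out, the log2 fold change ran from −0.36 to 0.07 for Ptprc, −0.31 to 0.03 for Ikzf1, −0.25 to 0.17 for Itgam, −0.24 to 0.25 for Cd84, −0.04 to 0.25 for F13a1, −0.19 to 0.12 for Pf4, −0.07 to 0.17 for Tlr4, −0.23 to 0.37 for Tmem119, −0.08 to 0.22 for Cybb and −0.22 to 0.11 for Ncf1. With only the groups compared, the interaction could not be fitted.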
